A study of Monodelphis domestica with 6 samples.

Results

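The POU family of homeobox transcription factors was followed through the reprogramming of opossum fibroblasts, around the class V genes *POU5F1* and *POU5F3*. Of 10 POU genes chosen by their symbols, 8 had an entry among the 35665 genes measured, namely *POU5F1*, *POU5F3* (entered as LOC100022539), *POU2F1*, *POU3F1*, *POU3F2*, *POU3F3*, *POU3F4* and *POU4F1*. *POU2F2*, a factor of B lymphocytes, and *POU6F1* had none and are not analysed here. POU proteins bind DNA through a POU-specific domain and a POU homeodomain joined by a flexible linker, and many of them read octamer-like sites. *POU5F1*, also known as OCT4, is a core factor of pluripotency in eutherians, which lost *POU5F3*, while marsupials kept both genes. Class III and class IV members are best known from the nervous system, and the class II member *POU2F1* (OCT1) is found in most cell types.

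The cells were wild-type skin fibroblasts of neonatal *Monodelphis domestica* pups (neoSFs) of the inbred strains FD2M1 and LSD1 (here a strain name, not the demethylase), and the iPSCs made from them (monoiPSCs). For reprogramming, neoSFs had received episomal plasmids for human OCT4, SOX2, NANOG, KLF4, LIN28 and cMYC together with a dominant-negative p53, and the neoSF libraries came from untreated cells. Each strain gave 1 neoSF library and 1 monoiPSC line, which was sequenced at passage 15 (P15) and passage 25 (P25), so there were 2 neoSF and 4 monoiPSC libraries. Since there was 1 line per strain, strain and clone cannot be told apart, and the passages of a line are not independent cultures, so every p-value below measures the spread between libraries only.

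The neoSFs were read in-house as short single-end reads and the monoiPSCs by a service as longer paired-end reads, so the effects of platform and cell type cannot be told apart. Total counts were 14278794 and 16982978 in neoSFs and 28684754 to 35564261 in monoiPSCs. Levels are given as the normalized read count (NRC), the count scaled to a common library size, and a count of 3, taken as the detection floor, weighed an NRC of 4.75 to 5.85 in neoSFs and 1.55 to 1.88 in monoiPSCs. Floors cover counting error only. In these bulk samples, fewer cells of a type and less RNA per cell cannot be told apart. The labelled cell types were checked by their markers. Of 13 fibroblast genes tested, 12 were lower in monoiPSCs and none was higher, their median log2 fold change was −5.50, and their summed NRC was 1691390 and 1828720 in neoSFs against 15800 to 20124 in monoiPSCs.

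A gene was tested where its NRC reached 20 in both neoSF or in all 4 monoiPSC libraries, which 13072 genes did. The test was edgeR's quasi-likelihood test, from which every standard error (SE) and every p adjusted by Benjamini-Hochberg is taken, and a gene was called where this p did not exceed 0.05 and the fold change reached 2. All 8 POU genes were tested, 5 of them (*POU5F1*, *POU3F2*, *POU3F3*, *POU3F4* and *POU4F1*) only because they passed in the monoiPSCs, which biases these 5 towards a higher level there. In monoiPSCs, 6 of the 8 were called higher and 0 lower, while 24.3% of all tested genes were called higher and 21.6% lower. At an unadjusted p under 0.05, edgeR had 7 of the 8, all but *POU3F3*, and 66.4% of all tested genes. The 6 were *POU5F1*, *POU2F1*, *POU3F1*, *POU3F2*, *POU3F4* and *POU4F1*. In 7 of the 8, all but *POU3F3*, the lowest monoiPSC library lay above the higher neoSF library, as it did for 36.1% of all tested genes, and 37.1% were separated in the other direction.

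**Figure D1:**
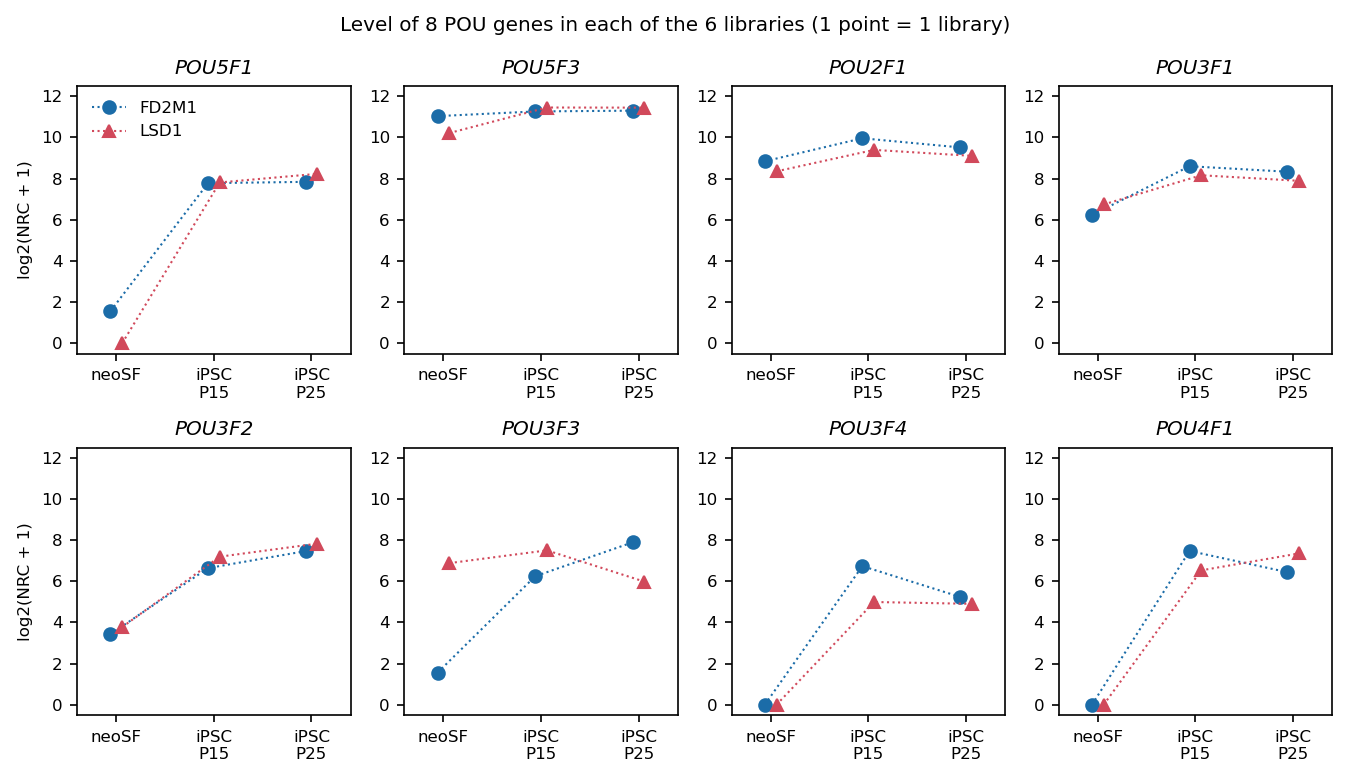
Level of each of the 8 POU genes as log2(NRC + 1) in the FD2M1 (circles) and LSD1 (triangles) neoSFs and in the monoiPSC line of the same strain at P15 and P25, 1 point per library. *POU5F1*, *POU3F4* and *POU4F1* start at or near 0 in neoSFs, *POU5F3* stays between 10 and 12 in all 6 libraries, and the lines of *POU3F3* and *POU4F1* cross between passages.

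*POU5F1* (gene 103096338, chromosome 2 of the MonDom5 assembly) had 1 count in the neoSFs of FD2M1 and 0 in those of LSD1, an NRC of 1.95 and 0. In the monoiPSCs its NRC was 219 at P15 and 228 at P25 in the FD2M1 line, and 224 at P15 and 299.8 at P25 in the LSD1 line. The gene was therefore at the floor in both neoSF libraries, and 3 of the 4 monoiPSC libraries lay within 10 NRC units of each other, with LSD1 at P25 above them. Against the floor of 3 counts in the shallower neoSF library, *POU5F1* was at least 41.5-fold higher on the NRC scale and at least 44.5-fold higher on TMM-scaled counts. Its adjusted p was 6.70e-05, and the exact two-sided permutation test over libraries gave p = 0.0667, the smallest that 15 splits of 4 against 2 allow. Whether reads of the human OCT4 plasmid were counted on this gene was not tested.

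*POU5F3* (gene 100022539, chromosome 1) was already high in the parental fibroblasts, with an NRC of 2099 in the FD2M1 and 1188 in the LSD1 neoSFs. The monoiPSCs had 2459 and 2522 in the FD2M1 line at P15 and P25, and 2806 and 2793 in the LSD1 line. The neoSF libraries were 1.77-fold apart from each other, while the 4 monoiPSC libraries were at most 1.14-fold apart, a spread smaller than that of all but 5.97% of the 12252 genes tested within monoiPSCs. The median gene was 1.47-fold apart. Between the means of 1643 ± 644 (SD, n = 2) for neoSFs and 2645 ± 180 (SD, n = 4) for monoiPSCs, the log2 fold change was 0.78 (SE 0.23, adjusted p = 0.0201 in edgeR), which passed the threshold on p but not the fold threshold, so *POU5F3* was not called. The adjusted p in edgeR was 0.0852 with the passages of a line summed, 0.0925 and 0.0841 with P15 or P25 alone, and 0.0959 without the LSD1 neoSFs (log2 fold change 0.44), so in these settings the threshold on p was missed too. The groups did not overlap (exact permutation test, two-sided p = 0.0667). Gene counts sum the splice variants of *POU5F3*, which are not analysed here.

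With 1 neoSF library per strain, a test of the difference between strains takes its spread only from the 2 passages of each line. Its SE and p hold no spread between neoSF libraries, here and for the POU genes below. Against the neoSFs of its own strain, the FD2M1 line had 1.19-fold more *POU5F3* and the LSD1 line 2.36-fold more. The difference between these changes was 0.97 on the log2 scale (SE 0.26), with an adjusted p of 0.321 in edgeR, and it was not called, as 0.0841% of all tested genes were. *POU5F3* and *POU3F3* were the 2 POU genes with an unadjusted p under 0.05 for this difference in edgeR, a level that 9.13% of all tested genes reached. Without the FD2M1 neoSF library, the log2 fold change of *POU5F3* was 1.24 with an adjusted p of 0.0027 in edgeR, and the gene was called higher; without the LSD1 neoSF library it was not called. The levels of *POU5F1* and *POU5F3* are not compared with each other, because no transcript lengths are used here.

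*POU2F1* (gene 100618168, chromosome 2), the broadly expressed octamer factor that drives histone H2B and small nuclear RNA genes, had an NRC of 458 and 326 in the neoSFs of FD2M1 and LSD1. In the FD2M1 line it had 995 at P15 and 731 at P25, and in the LSD1 line 672 at P15 and 550.0 at P25. The lowest monoiPSC library exceeded both neoSF libraries, and in both lines P25 lay below P15. The mean NRC rose from 392 ± 93.2 (SD, n = 2) to 737 ± 188 (SD, n = 4), a log2 fold change of 1.01 (SE 0.28, adjusted p = 0.0167 in edgeR; exact permutation test, two-sided p = 0.133). This change sat on the fold threshold, and 8 of 15 other settings took the call away, among them leaving out the LSD1 neoSFs (log2 fold change 0.79) or the FD2M1 line at P15 (0.83).

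Genes that act with octamer factors at small nuclear RNA promoters and on octamer targets were taken as a list of 12, of which 11 had an entry and 10 were tested. Of these 10, 3 were called higher and 0 lower, against 24.3% and 21.6% of all tested genes. Their median log2 fold change was −0.06, against 0.08 over all tested genes. The 3 were *NFYB*, a subunit of the CCAAT-binding factor NF-Y (log2 fold change 1.5, SE 0.14, adjusted p = 0.000118 in edgeR), *SNAPC5*, a subunit of the small nuclear RNA activating complex (1.20, SE 0.20), and *ZNF143*, which binds the same promoters (1.15, SE 0.17). *NFYA*, the other NF-Y subunit named, had a log2 fold change of −0.51 (SE 0.17) and was not called. The B cell coactivator *POU2AF1* had 0 NRC in 5 libraries and 1.03 in the LSD1 line at P25. No gene of the B cell and leukocyte list was tested, and the 7 with an entry summed to an NRC of 15.1 to 23.4 in neoSFs and 18.1 to 26.0 in monoiPSCs, with *MS4A1* at 0 in all 6 libraries and *CD79B* and *PAX5* at 0 in neoSFs.

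**Figure D2:**
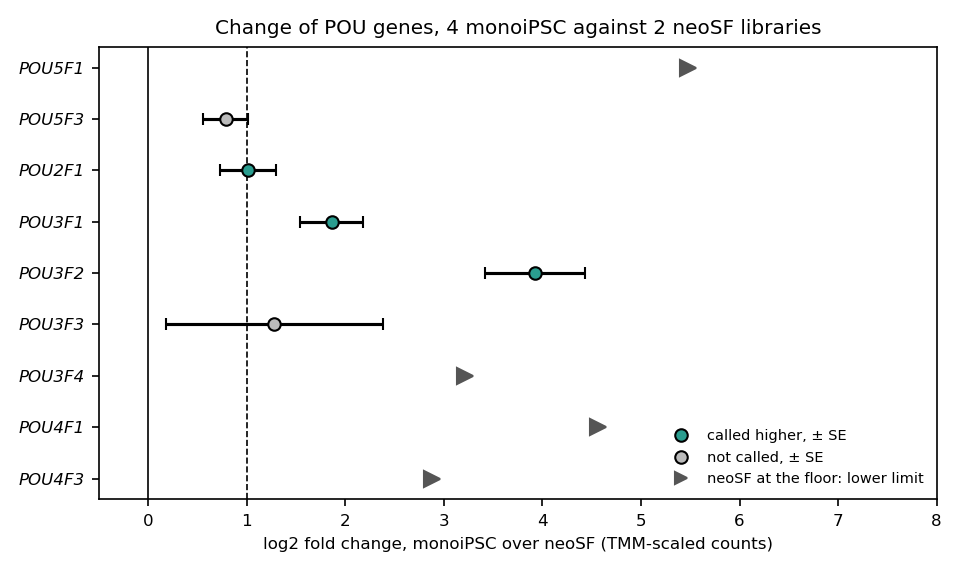
Log2 fold change on TMM-scaled counts, 4 monoiPSC libraries over 2 neoSF libraries, for the 8 POU genes and *POU4F3*, with bars of ± 1 SE for genes above the floor in neoSFs; the dashed line marks the 2-fold threshold. Triangles give the lower limit for genes at the floor in neoSFs, of which *POU5F1* had the highest, and among the genes drawn with a bar *POU3F3* has the widest, with an SE of 1.10.

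The 4 class III genes, which have no introns in mammals and act in neural progenitors and glia, split by their level in fibroblasts. *POU3F1* (gene 100024875, chromosome 4), also known as OCT6, a factor of the primed epiblast, Schwann cells and epidermis, had an NRC of 74.1 in the FD2M1 and 106 in the LSD1 neoSFs. Its NRC was 387 and 322 in the FD2M1 line at P15 and P25, and 285 and 237 in the LSD1 line. The groups did not overlap, and from P15 to P25 the level was 0.831 and 0.830 times as high in the FD2M1 and LSD1 lines. The mean NRC rose 3.42-fold, from 90.1 ± 22.6 (SD, n = 2) to 308 ± 63.4 (SD, n = 4), with a log2 fold change of 1.86 (SE 0.32, adjusted p = 0.00184 in edgeR; exact permutation test, two-sided p = 0.0667). The rise was 4.78-fold in FD2M1 and 2.46-fold in LSD1, and the difference between these changes was −0.97 on the log2 scale (SE 0.50, adjusted p = 0.669 in edgeR).

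*POU3F2* (gene 100020547, chromosome 2), known as BRN2, a factor of neural progenitors and of the melanocyte lineage, was barely detected in fibroblasts. It had 5 and 8 counts in the FD2M1 and LSD1 neoSFs, an NRC of 9.76 and 12.7. The NRC was 98.7 at P15 and 176 at P25 in the FD2M1 line, and 145 at P15 and 226 at P25 in the LSD1 line. All monoiPSC libraries lay far above both neoSF libraries, and both lines had more at P25 than at P15. The mean was 14.4-fold higher in monoiPSCs (11.2 ± 2.06, SD, n = 2, against 162 ± 53.6, SD, n = 4), with a log2 fold change of 3.92 (SE 0.51, adjusted p = 0.000512 in edgeR; exact permutation test, two-sided p = 0.0667), and the change was nearly equal in the strains, 14.1-fold in FD2M1 and 14.7-fold in LSD1.

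*POU3F3* (gene 100018629, chromosome 7), known as BRN1, acts in cortical progenitors and the kidney and did not follow the cell type. The neoSFs of FD2M1 held 1 count, an NRC of 1.95, and those of LSD1 an NRC of 117. The FD2M1 line had an NRC of 74.8 at P15 and 237 at P25, and the LSD1 line 180.3 at P15 and 62.1 at P25. The LSD1 neoSFs thus lay above the lowest library of each line. The log2 fold change was 1.28 (SE 1.10, adjusted p = 0.338 in edgeR; exact permutation test, two-sided p = 0.333), and *POU3F3* was not called. Without the LSD1 neoSF library it was called higher (log2 fold change 6.19, adjusted p = 0.0128 in edgeR), and without the FD2M1 neoSF library its log2 fold change was 0.33. The difference between the changes in the strains was −6.21 on the log2 scale (SE 1.88, adjusted p = 0.397 in edgeR), and was not called. Both the −6.21 and the 6.19 rest on the FD2M1 neoSF count of 1, under the floor of 3 counts, and are no limits on the fold.

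*POU3F4* (gene 100016088, chromosome X), known as BRN4, a factor of the inner ear and striatum, had no count in either neoSF library. In the FD2M1 line its NRC was 106 at P15 and 36.8 at P25, and in the LSD1 line it was 30.8 at P15 and 28.9 at P25. The FD2M1 line at P15 stood apart from the other 3 libraries, which lay between 28.9 and 36.8. The mean of 50.5 ± 36.9 (SD, n = 4) was at least 8.63-fold above the neoSF floor on the NRC scale and at least 9.29-fold on TMM-scaled counts. Without the FD2M1 line at P15, the mean was 32.2 ± 4.14 (SD, n = 3) and the folds over the floor were 5.50 and 5.89. The gene was called higher (adjusted p = 0.00464 in edgeR), and the exact permutation test gave a two-sided p of 0.2.

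*POU4F1* (gene 100620045, chromosome 7), known as BRN3A, a factor of sensory neurons of the dorsal root and trigeminal ganglia, also had no count in either neoSF library. Its NRC was 177 at P15 and 86.1 at P25 in the FD2M1 line, and 91.4 at P15 and 162 at P25 in the LSD1 line. High and low libraries were thus found in each line, at opposite passages. The monoiPSC mean of 129 ± 47.0 (SD, n = 4) was at least 22.1-fold above the neoSF floor on the NRC scale and at least 23.7-fold on TMM-scaled counts (adjusted p = 0.00043 in edgeR; exact permutation test, two-sided p = 0.0667).

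Of the other POU genes, *POU4F3*, the class IV factor of auditory hair cells, had 0 in both neoSF libraries and an NRC of 24.1 and 59.7 in the FD2M1 line at P15 and P25 and of 45.8 and 31.4 in the LSD1 line. It was at least 6.88-fold above the floor on the NRC scale and was called higher (adjusted p = 0.00162 in edgeR). *POU4F2*, the class IV factor of retinal ganglion cells, had 0 in both neoSF libraries and 65.0, 19.8, 18.6 and 28.4 in the monoiPSC libraries in the same order, and was not tested because 2 of these lay under 20. *POU4F1* and *POU4F2* were both lower at P25 than at P15 in the FD2M1 line and higher in the LSD1 line, and *POU4F3* was the reverse. The pituitary factor *POU1F1* reached an NRC of 7.36 in the LSD1 line at P15 and had at most 1.06 counts in any other library, and *POU2F3*, the tuft cell factor, 7.30 and 3.77 in the FD2M1 line alone. *POU5F2* had no entry.

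Because the class III and class IV genes are known from neural cells, markers of those cells were summed beside them. Of 20 neural progenitor genes tested, 12 were called higher in monoiPSCs and 2 lower, against 24.3% and 21.6% of all tested genes. Their median log2 fold change was 3.38. Of the 20, 7 were tested only because they passed in the monoiPSCs, and the 2 lower genes only because they passed in the neoSFs. The summed NRC of the 27 list genes with an entry was 21626 and 42279.5 in neoSFs and 43141 to 51682 in monoiPSCs. *MSI1*, an RNA-binding protein of neural stem cells, rose from 172 ± 3.81 (SD, n = 2) to 2442 ± 174 (SD, n = 4), a log2 fold change of 3.93 (SE 0.17, adjusted p = 9.69e-06 in edgeR). *FABP7*, the radial glia fatty-acid-binding protein, had an NRC of 7.17 and 2.32 in neoSFs and 7748 to 12579 in monoiPSCs. *GBX2*, which places the midbrain-hindbrain boundary and is also expressed in pluripotent cells, had 1375 ± 375 (SD, n = 4) in monoiPSCs, and *RFX4* was at least 143-fold above the floor. Among the neural progenitor genes, *NEUROG1* and *LHX5* had no count in either neoSF library, and *LHX5* had none in the monoiPSCs either.

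Of 14 sensory neuron genes tested, 10 were called higher and 1 lower, against 24.3% and 21.6% of all tested genes. Their median log2 fold change was 4.34, and 9 of the 14 were tested only because they passed in the monoiPSCs. The summed NRC of the 16 list genes with an entry was 2693 and 5228 in neoSFs and 5329 to 12935 in monoiPSCs. *TLX3* and *ELAVL3*, a homeobox factor and an RNA-binding protein of postmitotic neurons, were at 0 in both neoSF libraries and were at least 51.4-fold and 98.2-fold above the floor. *INSM1*, a zinc-finger factor of neuroendocrine and neuronal precursors, had 9.76 and 0 in neoSFs and 869.5 to 1687 in monoiPSCs. *PRDM12*, a factor of pain-sensing neurons, was at least 24.9-fold above the floor. The part of neural cells in the levels of the POU genes was not tested.

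Schwann cell and melanocyte genes were counted because *POU3F1* and *POU3F2* are known in those cells. Of 7 tested, 4 were called higher and 2 lower, against 24.3% and 21.6% of all tested genes, and the median log2 fold change was 5.41. The 4 higher genes were tested only because they passed in the monoiPSCs, and 1 of the 2 lower genes only because it passed in the neoSFs. *DCT*, the melanoblast enzyme dopachrome tautomerase, had 1.95 and 1.58 in neoSFs and an NRC of 5608 and 4372 in the FD2M1 line and 15279 and 7858 in the LSD1 line at P15 and P25. *KIT*, the stem cell factor receptor, was at least 111-fold above the floor, *MBP*, a myelin protein, had a log2 fold change of 5.74 (SE 0.45), and *PMP22*, another myelin protein, one of −3.47 (SE 0.33). The summed NRC of the 9 list genes with an entry was 1579 and 1219 in neoSFs and 6008 to 16909 in monoiPSCs. *POU3F1* and *POU3F2* did not have their highest level in the library where *DCT* was highest, LSD1 at P15. Keratinocyte genes were counted for *POU3F1* as well, and of 9 listed, 4 had an entry and 3 were tested, 2 of them (*EPCAM* and *CDH1*) only because they passed in the monoiPSCs. The adhesion genes *EPCAM* and *CDH1*, which pluripotent cells also express, were called higher, *EPCAM* at least 198-fold above the floor and *CDH1* with a log2 fold change of 7.64 (SE 0.63). The desmosome gene *DSP* was called lower (−1.70, SE 0.50), and not without the FD2M1 neoSF library.

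The genes known to act with *POU5F1* or to be controlled by it were taken as a list of 34, of which 25 had an entry and 19 were tested, 9 of them only because they passed in the monoiPSCs. In monoiPSCs, 13 were called higher and 2 lower, against 24.3% and 21.6% of all tested genes, at a median log2 fold change of 4.13. *SOX2*, which binds composite sites together with *POU5F1*, had an NRC of 3.90 and 3.17 in neoSFs and of 2649 and 3438 in the FD2M1 line and 4088 and 3281 in the LSD1 line at P15 and P25, at least 575-fold above the floor (adjusted p = 7.81e-06 in edgeR). *PRDM14*, a regulator of the ground state and of germ cells, was at least 185-fold above the floor, and *SALL4*, a zinc-finger partner of *POU5F1*, rose from 103 and 142 to between 1771 and 3034. *NANOG* had 3.90 and 0 in neoSFs and an NRC of 279.9 and 962 in the FD2M1 line and 858 and 1456 in the LSD1 line at P15 and P25, while *POU5F1* differed by at most 1.37-fold between these libraries.

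The 2 lower genes were *KLF2* and *KLF4*, Krüppel-like factors of naive pluripotency that fibroblasts also express. *KLF2* fell from 3753 ± 160 (SD, n = 2) to 88.9 ± 16.8 (SD, n = 4), a log2 fold change of −5.30 (SE 0.20, adjusted p = 7.81e-06 in edgeR). *KLF4* fell from 1797 ± 230 (SD, n = 2) to 60.2 ± 14.0 (SD, n = 4), a log2 fold change of −4.81 (SE 0.24, adjusted p = 1.51e-05 in edgeR). KLF4 was among the factors on the plasmids.

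Regulators of trophectoderm, which *POU5F1* is known to hold down in mouse embryos, were listed with those of endoderm and mesoderm. Of 16 listed and 15 with an entry, 9 were tested, and 4 were called higher and 4 lower, at a median log2 fold change of −0.60. Among all tested genes, 24.3% were called higher and 21.6% lower. The 4 lower genes were tested only because they passed in the neoSFs, and *CDX2* only because it passed in the monoiPSCs. This filter biases these genes towards the direction in which they were called. *CDX2*, the trophectoderm and posterior homeobox factor, had 3.90 and 0 in neoSFs and an NRC of 3928 and 3991 in the FD2M1 line and 2662 and 1124 in the LSD1 line at P15 and P25, at least 499.9-fold above the floor. *FOXA2*, an endoderm and floor plate factor, rose from 26.9 ± 0.648 (SD, n = 2) to 2542 ± 1427 (SD, n = 4), with 1118 and 1511 at P15 and 3719 and 3820 at P25 in the FD2M1 and LSD1 lines. *TEAD4*, which acts upstream of *CDX2* in the mouse trophectoderm, had a log2 fold change of 1.12 (SE 0.21), and *GATA6*, a primitive endoderm factor, one of −5.77 (SE 0.85). *GATA4* had no count in any of the 6 libraries.

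**Figure D3:**
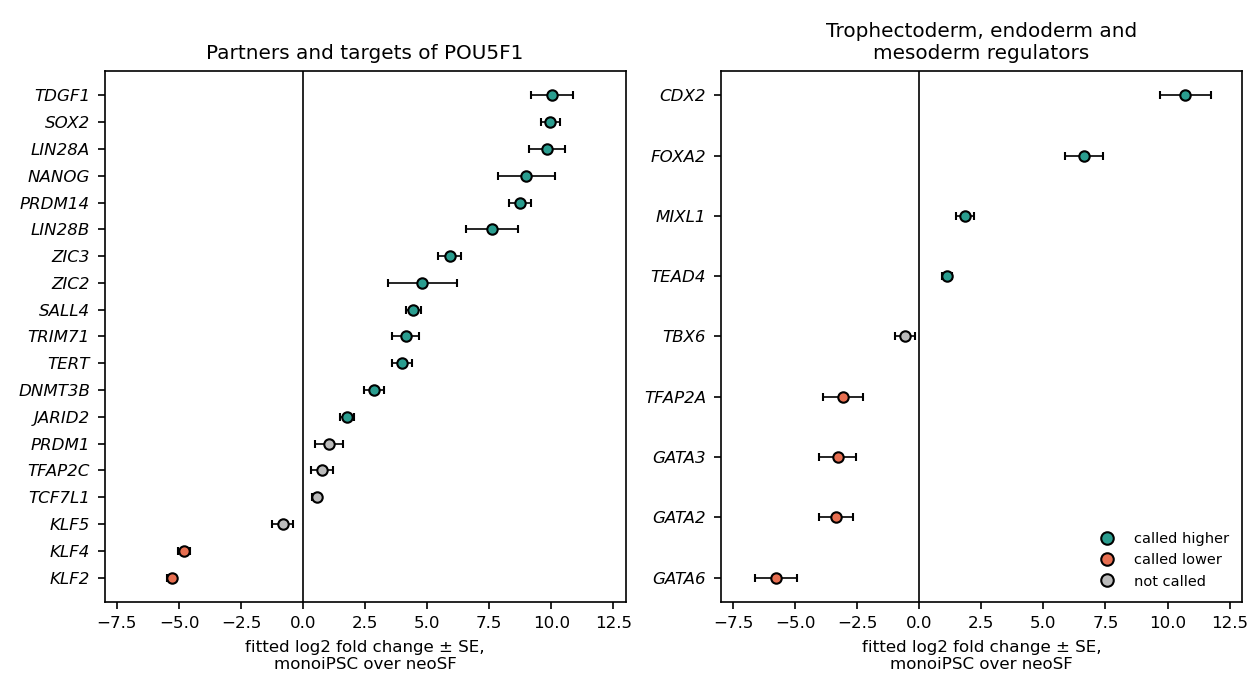
Fitted log2 fold change, monoiPSC over neoSF, with bars of ± 1 SE, for the 19 tested partners and targets of *POU5F1* and the 9 tested regulators of other lineages, coloured by call. For genes at the floor in neoSFs, such as *SOX2*, *NANOG*, *PRDM14* and *CDX2*, the fitted value depends on how counts of 0 are handled and is no limit on the fold; *KLF2* and *KLF4* lie near −5.

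Within the monoiPSCs, 12252 genes were tested for P25 against P15 with line as a block, and for the LSD1 against the FD2M1 line with passage as a covariate. None of the 8 POU genes was called in either comparison, and 0.0% of all tested genes were called in each direction with edgeR. At an unadjusted p under 0.05, edgeR had 1 POU gene for passage, *POU3F2*, and 1 for line, *POU2F1*, where the shares of all tested genes were 9.35% and 14.2%. DESeq2 called 88 genes higher and 27 lower for passage and 120 and 72 for line, and none of the 8 POU genes, although *POU3F4* got no adjusted p from DESeq2 for line. *POU3F2* was 0.72 higher at P25 on the log2 scale (SE 0.29, adjusted p = 0.533 in edgeR), that is 1.78-fold in the FD2M1 and 1.56-fold in the LSD1 line. *POU2F1* was 0.48 lower in the LSD1 line on the log2 scale (SE 0.17, adjusted p = 0.305 in edgeR).

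The POU genes differed in how far the 4 monoiPSC libraries were spread. The coefficient of variation was 6.82% for *POU5F3*, 15.8% for *POU5F1*, 20.6% for *POU3F1*, 25.5% for *POU2F1*, 33.2% for *POU3F2*, 36.4% for *POU4F1*, 60.9% for *POU3F3* and 72.9% for *POU3F4*, and the median over all tested genes was 17.2%. The highest library was 3.81-fold above the lowest for *POU3F3* and 3.65-fold for *POU3F4*, ratios larger than those of 96.6% and 96.3% of the tested genes. The NRC of *POU3F4* in the FD2M1 line at P15 had an exact 95% Poisson interval of 91.0 to 122, which covers counting error only, and the intervals of the other 3 monoiPSC libraries lay between 21.8 and 47.8.

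*POU2F1*, *POU3F1* and *POU3F4* were lower at P25 than at P15 in both lines, as were 29.6% of all tested genes, and *POU5F1* and *POU3F2* were higher in both, as were 29.0%. *POU3F3* and *POU4F1* moved in opposite directions in the lines. *POU3F3* was 3.17-fold higher at P25 than at P15 in the FD2M1 line and 2.90-fold lower in the LSD1 line, while *POU4F1* was 2.05-fold lower at P25 in the FD2M1 line and 1.78-fold higher in the LSD1 line. Of the 14 sensory neuron genes tested within monoiPSCs, 10 had the directions of *POU4F1*, lower at P25 in FD2M1 and higher at P25 in LSD1, as did 21.3% of all tested genes, and none had those of *POU3F3*, as did 20.1% of all tested genes. Of 18 neural progenitor genes, 9 had the directions of *POU4F1* and 1 those of *POU3F3*. With 1 library for each line and passage, this pattern was not tested, and genes of a library share its depth and scaling.

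The summed NRC of the sensory neuron list was 11309.7 at P15 and 5329 at P25 in the FD2M1 line, and 7514 at P15 and 12935 at P25 in the LSD1 line. Within each line, the library with more *POU4F1* also had the larger sum. Between lines the order differed, since *POU4F1* was highest in FD2M1 at P15 (177, against 162 in LSD1 at P25). *TLX3* had an NRC of 307 and 160.4 in the FD2M1 line and 301 and 434 in the LSD1 line at P15 and P25, and *ELAVL3* 571 and 456 in the FD2M1 line and 360.1 and 912.5 in the LSD1 line. *TUBB3*, neuronal tubulin, was named after its values were seen, and had 3171 and 1120.5 in the FD2M1 line and 1438 and 3414 in the LSD1 line. The list gene that went furthest from this pattern was *NTRK2*, at 82.5 and 67.3 in the FD2M1 line and 159 and 37.3 in the LSD1 line. The part of neurons in the level of *POU4F1* was not tested.

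**Figure D4:**
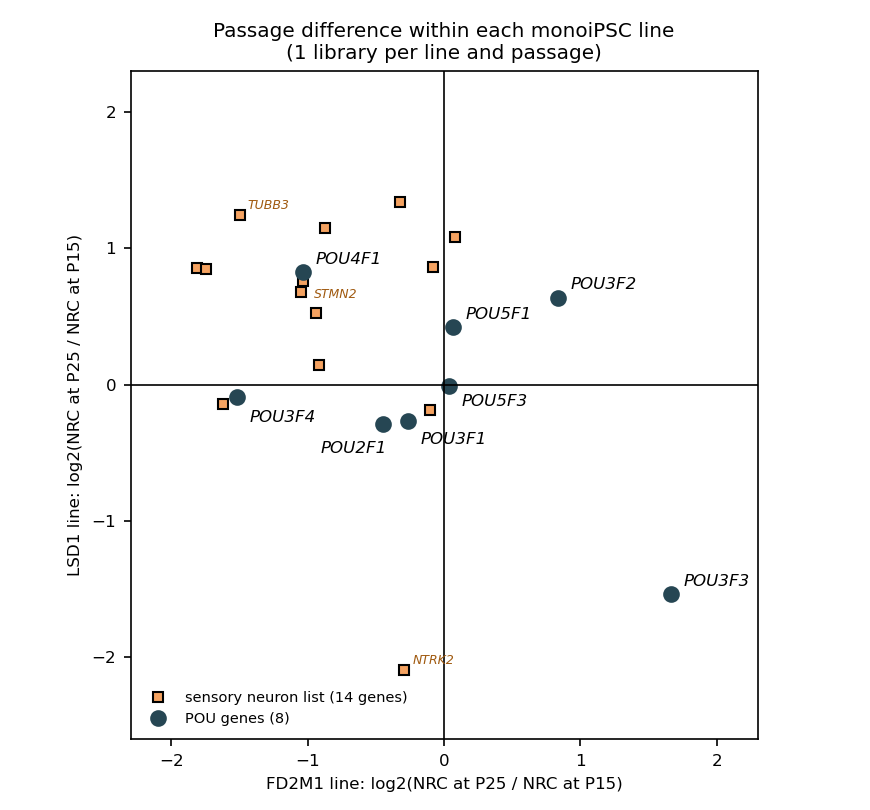
Log2 ratio of the NRC at P25 over P15 in the FD2M1 line (horizontal) and in the LSD1 line (vertical) for the 8 POU genes (circles) and the 14 tested sensory neuron genes (squares), 1 library for each line and passage. *POU4F1* lies in the upper left among 10 of the sensory neuron genes, *POU3F3* lies alone in the lower right, and *POU5F3* lies near the origin.

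The profiles most like those of the class V genes were searched for over the 6 libraries, by the root mean square difference of log2(NRC + 1) after the mean of each gene was taken off. For *POU5F1*, the closest of 11382 genes were *TOX2* (0.163), *RNF7* (0.232), *MYT1* (0.306), *FGF13* (0.318) and *IYD* (0.328). *TOX2* had an NRC of 6.50 and 2.11 in neoSFs and 507 to 690.0 in monoiPSCs, and *MYT1*, a zinc-finger factor of neurons, had 1.95 and 0 in neoSFs and 212 to 404 in monoiPSCs. For *POU5F3*, the closest of 11383 genes were *NT5C* (0.0802), *RCE1* (0.0827), *NUP35* (0.110), *RPAIN* (0.112) and *ELP2* (0.113). Like *POU5F3* itself, all had their lowest level of the 6 libraries in the neoSFs of LSD1, which the choice by likeness favours. Each likeness rests on 6 libraries that share the platform split.

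The genes next to the POU genes were taken in the order of the mMonDom1.pri annotation, in which no annotated gene overlapped any of the 7 POU genes that could be placed. Of the genes on either side of *POU5F1*, *TCF19* had an NRC of 98.2 and 67.7 in neoSFs and 166 to 181 in monoiPSCs, a log2 fold change of 1.16 (SE 0.28, adjusted p = 0.00852 in edgeR), and LOC100024727 had one of −0.26 (SE 0.41, adjusted p = 0.603 in edgeR). On either side of *POU3F1*, *UTP11* had a log2 fold change of 1.33 (SE 0.15) and *RRAGC* one of −1.63 (SE 0.16). *FBXL4*, beside *POU3F2*, had one of −0.40 (SE 0.31) and was not called. *MRPS9*, beside *POU3F3*, was called higher (1.93, SE 0.22), which *POU3F3* was not. Reads of paralogs with a conserved POU domain could be split among them, since the deposited counts held fractions, and how far this reached the POU genes was not tested.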

How the data were processed

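The authors aligned reads to the MonDom5 assembly with StrandNGS, removed reads by quality and multiple mapping, and counted them on RefSeq genes. The deposited values are called raw counts, yet 87.1% of those above 0 held a fraction, and they were handled here as estimated counts, rounded before each test. A second deposited file holds log2 values that the authors normalized with DESeq, in which values under 1 were set to 0; the NRC is 2 to that power, with 0 kept as 0. DESeq and bcl2fastq are named in the submitters' processing notes. The files held no fold changes or p-values. Sources differ on whether the library kit kept strand.

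Counts were TMM-scaled and tested with edgeR 4.0.16 (glmQLFit, glmQLFTest, R 4.3.3) over all 6 libraries without a block, within the 4 monoiPSC libraries for passage (line as block) and line (passage as covariate), and with a strain by cell type interaction. limma 3.58.1 on log2 values and DESeq2 1.42.0 were alternatives, as were RLE scaling, no filter, a filter on the mean, 1 passage at a time, summed passages, the strain block and leaving out each library. The test was checked on simulated counts. Single NRC values were compared by exact permutation over 15 splits.

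The POU genes and all lists were chosen with earlier results of these data known. The POU genes with an entry were named, apart from results not reported here, and of each list the 4 with the smallest adjusted p in monoiPSC against neoSF, with *SOX2*, *NANOG*, *SALL4*, *CDX2* and *POU2AF1*. Of the gene numbers, 25831 matched a RefSeq table of mMonDom1.pri, another assembly than that of the files, so it gave only names and gene order. A line was made from the neoSFs of its strain, which pairs them, and the LSD1 minus FD2M1 differences in neoSFs and monoiPSCs had a correlation of 0.0428 across genes.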

Additional observations from a re-analysis of the deposited data

Results flagged for a closer look

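Single libraries stood apart from the other 3 monoiPSC libraries for 2 POU genes by Dixon's criterion, which picks out about 1 in 20 groups by chance. *POU5F1* had an NRC of 299.8 in the LSD1 line at P25, where the gap to the nearest library was 0.878 of the range. *POU3F4* had an NRC of 106 in the FD2M1 line at P15, with a gap of 0.897 of the range.

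For 3 POU genes the lines moved in opposite directions from P15 to P25, and with 1 library for each line and passage these differences were not tested. The log2 ratio of P25 over P15 was 1.66 in the FD2M1 and −1.54 in the LSD1 line for *POU3F3*, and −1.04 and 0.83 for *POU4F1*. For *POU5F3* it was 0.037 and −0.0064, which are both near 0.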

How the results depend on the processing

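Over 120 values of the 8 POU genes under other settings for monoiPSC against neoSF, 110 kept their call, 8 lost it (all *POU2F1*), 2 gained it (*POU5F3* and *POU3F3*, each without 1 neoSF library) and 0 reversed. *POU2F1* had a log2 fold change of 0.96 with RLE scaling and with DESeq2, 0.90 with limma, 0.99 with the filter on the mean, 0.80 with P25 libraries alone and 1.00 with summed passages. With strain as a replicate block, 3186 genes were called higher and 2826 lower, against 3176 and 2824, and no call of a POU gene changed. Without the block, 0 genes were called for passage and for line. For passage, DESeq2 called 88 genes higher and 27 lower, and leaving out 1 library gave 0 to 168 and 0 to 47. For line, DESeq2 called 120 and 72, and leaving out 1 library gave 0 to 46 and 0 to 4. For the difference between strains, the 11 genes called higher and 0 lower became 202 and 102 with DESeq2, 27 and 8 without a filter, 11 and 1 with RLE scaling, and 0 to 91 and 0 to 19 without 1 library; the cause was not tested. The log2 passage difference of *POU3F4*, −0.84 (adjusted p = 0.608 in edgeR), ran from −1.67 to 0.072 when 1 library was left out, and reversed to 0.072 without the FD2M1 line at P15. On TMM-scaled CPM, an alternative chosen after seeing the data, 10 sensory neuron genes again had the passage directions of *POU4F1*. Of 300 list counts under other settings, 9 moved by over 1.5 times. The neoSF libraries were shallower, which limits what their counts of 0 can show.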
